A study of Mus musculus with 13 samples.

Results

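The genes described here make, modify, esterify, store and carry fatty acids, and they include genes for which the sebaceous gland is known. They were chosen by name, with earlier results of these data known. The 37 symbols each matched 1 gene identifier among the 25746 genes of a count table. All 37 had at least 1 count in some library, and 36 passed the filter on low counts together with 16051 genes in all. The exception was Mogat2, a monoacylglycerol acyltransferase of intestine-type triglyceride synthesis, which lay between 0 and 0.426 CPM (counts scaled for library depth and composition) in the 13 libraries. The libraries came from bulk RNA of interfollicular keratinocytes, the epidermal cells between the hair follicles, sorted from skin of C57/BL6 mice. Every mouse carried floxed Il12rb2 alleles (Il12rb2fl/fl), so no library had unmodified alleles of this interleukin-12 receptor gene. Mice with K14Cre/+ in addition, in which the keratin 14 promoter drives Cre in basal epidermal cells, are called Il12rb2-deleted. They gave 3 libraries after 1 day of Aldara, a skin cream with 5% imiquimod that activates Toll-like receptor 7, and 4 libraries without treatment. Mice without Cre, called floxed control, gave 3 Aldara and 3 untreated libraries. The labels mention no vehicle cream for untreated skin, and age and sex are not given. Since the labels do not state that replicates came from separate animals, p-values here reflect the spread among libraries, which may be technical.

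Fatty acids are built from citrate-derived acetyl-CoA by Acly, the acetyl-CoA carboxylases and Fasn, then desaturated by Scd and Fads enzymes and lengthened by Elovl enzymes. Activated chains are joined to glycerol as triglyceride, to fatty alcohols as wax or to cholesterol as sterol ester, and are stored in droplets coated by perilipins. Keratinocytes use long chains for the ceramides of the skin barrier. Sebocytes, the cells of the sebaceous gland that opens into the hair follicle, fill with wax, triglyceride and sterol esters under the nuclear receptor Pparg and break down to release sebum.

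Promoter sequences (250 bases before to 50 after the start) were listed by RefSeq for 25 of the 37 genes, on build GRCm38.p6. No window was listed for Scd1, Scd2, Fads1, Elovl3, Dgat1, Dgat2, Mogat2, Cidea, Mc5r, Fabp4, Fabp5 and Apoc1. The 4 windows below belong to the genes that rose after Aldara in both genotypes and had 1 window listed each, so that their start regions can be compared. They lie at chr6:148047166-148047465 on the plus strand for Far2, and on the minus strand at chr4:86670010-86670309 for Plin2, chr1:156474279-156474578 for Soat1 and chr11:120824498-120824797 for Fasn. Each is written 5′ to 3′ in the direction of transcription, and capitals mark matches to 6 short motifs on either strand.
Far2: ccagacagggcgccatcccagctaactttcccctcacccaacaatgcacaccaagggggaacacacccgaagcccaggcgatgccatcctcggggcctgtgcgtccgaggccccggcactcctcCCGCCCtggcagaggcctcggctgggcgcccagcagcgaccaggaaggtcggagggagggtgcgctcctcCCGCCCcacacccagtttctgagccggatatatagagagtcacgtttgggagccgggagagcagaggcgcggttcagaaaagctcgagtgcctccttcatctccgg
Plin2: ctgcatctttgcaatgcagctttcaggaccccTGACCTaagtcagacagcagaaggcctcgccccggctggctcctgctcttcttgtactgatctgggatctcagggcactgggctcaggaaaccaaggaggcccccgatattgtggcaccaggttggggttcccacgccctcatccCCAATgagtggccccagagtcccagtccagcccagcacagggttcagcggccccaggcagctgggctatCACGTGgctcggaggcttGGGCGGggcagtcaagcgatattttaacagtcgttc
Soat1: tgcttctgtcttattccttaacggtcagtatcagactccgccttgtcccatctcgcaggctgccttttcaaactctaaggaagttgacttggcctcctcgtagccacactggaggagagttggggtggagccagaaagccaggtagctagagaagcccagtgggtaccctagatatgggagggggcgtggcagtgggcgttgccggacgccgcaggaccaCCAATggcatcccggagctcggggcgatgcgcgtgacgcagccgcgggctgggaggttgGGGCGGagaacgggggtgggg
Fasn: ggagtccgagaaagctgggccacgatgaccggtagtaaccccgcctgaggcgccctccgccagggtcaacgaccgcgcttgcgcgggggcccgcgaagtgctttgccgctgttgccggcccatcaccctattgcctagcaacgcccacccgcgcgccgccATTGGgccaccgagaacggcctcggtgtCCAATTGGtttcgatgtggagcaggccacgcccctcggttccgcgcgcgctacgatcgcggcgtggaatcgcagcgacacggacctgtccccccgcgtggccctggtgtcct
The motifs searched were the nuclear receptor half-site AGGTCA, the sterol regulatory element TCACNCCAC, the E-box CACGTG, the Sp1 box GGGCGG, the CCAAT box CCAAT and the TATA box TATAAA, and overlapping matches were kept. Of the 4 windows, Plin2 held 4 motifs, namely a half-site, an E-box 4 bases before the start, an Sp1 box and a CCAAT box. The Far2 window held 2 Sp1 boxes, at 126 and 56 bases before the start. In Fasn there were 3 CCAAT boxes, 2 of them sharing letters, and in Soat1 1 CCAAT box and 1 Sp1 box. No motif of the 6 was present in all 4 windows. Among the 25 genes with an entry, some of which have several windows, the half-site was found in 8 and in 18.1% of all 27025 mouse genes with a window. The E-box was found in 2 of the 25 and in 8.09% of all genes, and the Sp1 box in 16 of the 25 and in 38.2% of all genes. The CCAAT box occurred in 16 of the 25 and in 41.1% of all genes, and the TATA box in 2 of the 25 and in 15.7% of all genes. The sterol regulatory element occurred in 1 of the 25, Acsl1, and in 1.44% of all genes. GC content was 66.0% for Far2, 60.7% for Plin2, 62.0% for Soat1 and 69.3% for Fasn, beside a median of 52.7% over all windows. A match describes letters in a window and says nothing of binding.

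Depth ran from 5830034 to 22232478 counts per library, and no pair of libraries was identical. Basal and suprabasal keratin genes were read in all libraries, with the basal Krt14 between 6422 and 32629 CPM. The suprabasal Krt1 and Krt10 ranged more widely, from 17.1 to 1627 and from 22.4 to 2488 CPM, and were lowest in Il12rb2-deleted Aldara replicate 1. Il12rb2 stood at 0 to 1.64 CPM after Aldara and 8.52 to 25.6 CPM untreated in Il12rb2-deleted libraries, and at 1.98 to 8.14 CPM after Aldara and 17.1 to 78.8 CPM untreated in floxed control libraries. The deletion was thus not visible as absence of the transcript in untreated skin, and which exons are floxed is not given. A predicted gene, Gm10800, took 10.3% and 5.21% of counts in Il12rb2-deleted untreated replicates 2 and 1 and 14.2% in floxed control untreated replicate 2. Il12rb2-deleted Aldara replicate 1 correlated least with the other libraries (median Spearman rho 0.847).

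After Aldara, averaged over both genotypes, all 5 wax and sterol ester genes, 2 of 3 elongation genes and 2 of 4 droplet genes rose, and the acyl-CoA synthetase Acsl1 and the desaturase Scd2 fell. In Il12rb2-deleted cells 11 of the 36 genes rose and 1 fell, where 7.81% and 7.69% of all genes did (15.5% in either direction). In floxed control cells 10 rose and 1 fell, where 4.15% and 2.90% of all genes did (7.05% in either direction). Over the mean of both genotypes 20 rose and 2 fell, where 13% and 11.9% of all genes did (24.9% in either direction). Calls are edgeR quasi-likelihood tests with Benjamini-Hochberg adjusted p under 0.05 over all 16051 genes. The median log2 fold change of the 36 genes was 0.92 in Il12rb2-deleted cells and 1.07 in floxed control cells, beside -0.09 and -0.13 over all genes. Summed over the genes, the level was 8379 ± 949 CPM after Aldara and 3104 ± 1052 CPM untreated in Il12rb2-deleted libraries (SD, n = 3 and 4), and 10677 ± 3006 CPM after Aldara and 3823 ± 1107 CPM untreated in floxed control libraries (SD, n = 3 each). In bulk RNA, more cells of a type and more RNA per cell cannot be told apart.

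Of the genes called over the mean, 8 rose in both genotypes: Fasn, Elovl3, Far2, Soat1, Gpam, Plin2, Fabp5 and Mc5r. Acsl1 fell in both. Awat1, Cidea and Pparg passed the test in Il12rb2-deleted cells, and Acly and Agpat2 in floxed control cells, but the difference between the genotypes' Aldara effects passed for none of the 5. The other 8 passed over the mean and in neither genotype. The test over the mean rests on all 13 libraries and shares them with the tests within each genotype. Il12rb2-deleted Aldara libraries all lay above the untreated ones for 12 genes and below for 2, against 14.2% and 14.8% of all genes. For floxed control libraries the counts were 19 and 2, against 13.1% and 14.7% of all genes. All 6 Aldara libraries lay above all 7 untreated ones for 11 genes and below for 1, Acsl1, against 6.29% and 5.48% of all genes.

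**Figure D1:**
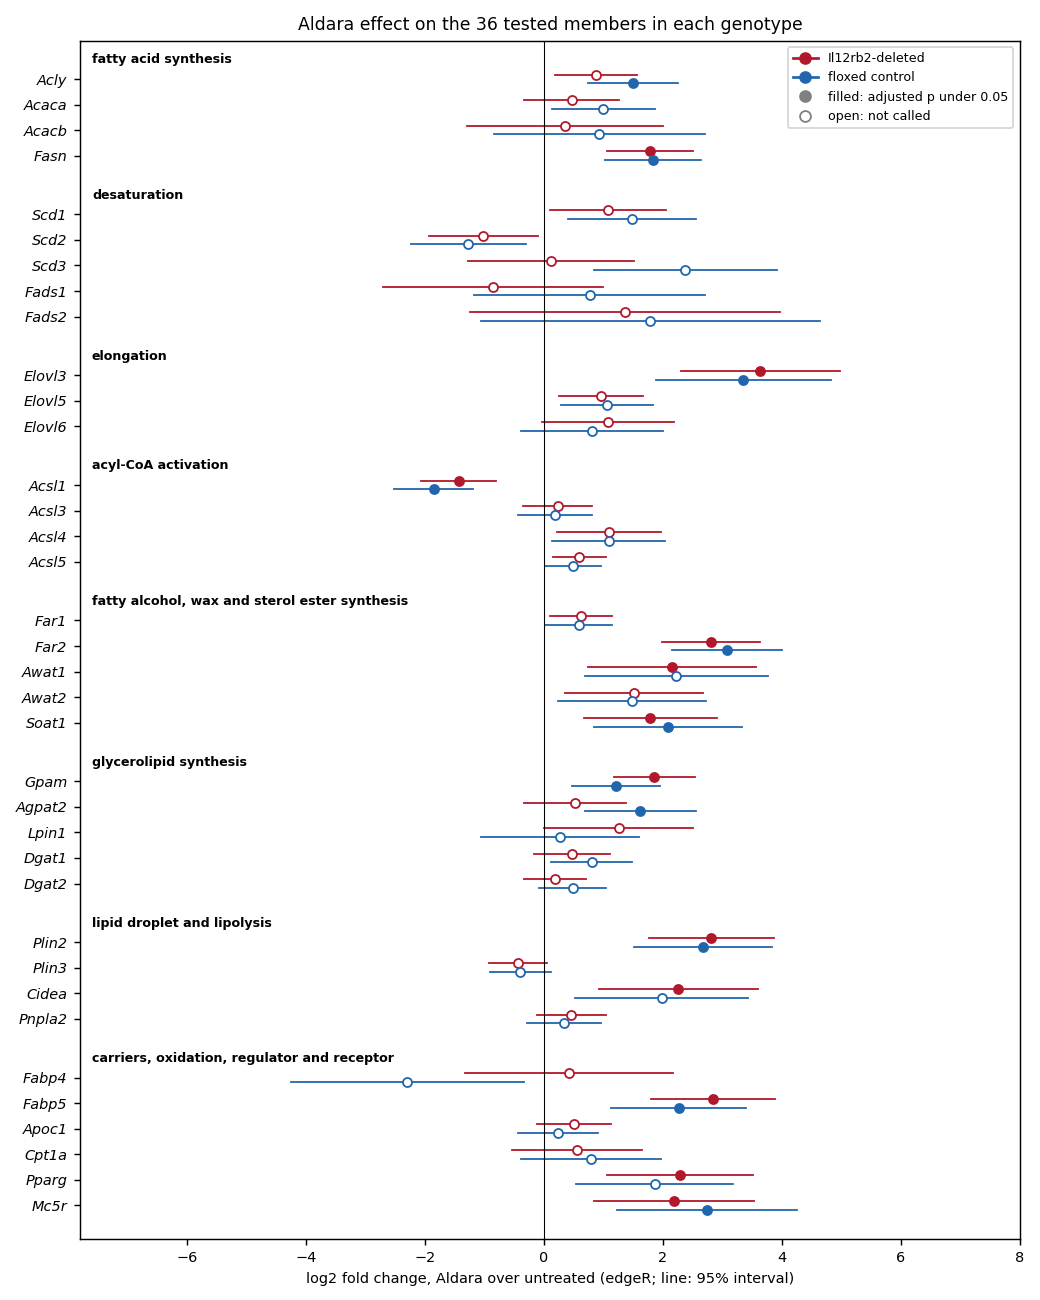
Fitted log2 fold change of Aldara over untreated (x axis) for the 36 tested genes grouped by role (y axis), in Il12rb2-deleted cells (red) and floxed control cells (blue), with lines for 95% intervals and filled points for adjusted p under 0.05. Elovl3, Far2, Plin2 and Fabp5 lie furthest to the right in Il12rb2-deleted cells, from 2.80 to 3.63, and Acsl1 lies to the left in both genotypes.

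Fatty alcohol, wax and sterol ester synthesis was the role with the highest median over both genotypes, 1.94 in log2, and all 5 of its genes rose over the mean. Far2 (chromosome 6, 148047259 to 148182758, plus strand), a fatty acyl-CoA reductase that makes the alcohols of wax, stood at 497, 557 and 603 CPM after Aldara and at 30.8, 127, 91.9 and 67.4 CPM untreated in Il12rb2-deleted libraries. In floxed control libraries it stood at 860, 1019 and 697 CPM after Aldara and at 157, 74.4 and 75.2 CPM untreated. Every Aldara library thus lay above every untreated one. The log2 fold change was 2.80 (SE 0.39, edgeR adjusted p = 0.00069) in Il12rb2-deleted cells and 3.07 (SE 0.43, adjusted p = 0.0029) in floxed control cells, or 7.66-fold over the mean of both. Its paralog Far1, a reductase of many tissues that also feeds ether lipid synthesis, stood at 87.4, 97.2 and 121 CPM after Aldara and 62.3, 84.2, 44.1 and 73.0 CPM untreated in Il12rb2-deleted cells, and at 87.5, 89.4 and 103 CPM after Aldara and 81.8, 49.6 and 55.7 CPM untreated in floxed control cells. For Far1 the change was 0.61 (SE 0.18, edgeR adjusted p = 0.022) over the mean, and it passed in neither genotype.

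Soat1, which esterifies cholesterol, read 197, 217 and 200 CPM after Aldara and 8.14, 81.2, 99.3 and 48.3 CPM untreated in Il12rb2-deleted libraries. In floxed control libraries it read 540, 471 and 359 CPM after Aldara and 156, 107 and 61.3 CPM untreated. The groups did not overlap within either genotype, and Il12rb2-deleted Aldara libraries all lay below the floxed control Aldara libraries. Soat1 rose by 1.79 in log2 in Il12rb2-deleted cells (SE 0.53, edgeR adjusted p = 0.0316) and by 2.08 in floxed control cells (SE 0.58, adjusted p = 0.0442). The wax synthases Awat1 and Awat2, which join alcohol and acyl chain, were lower per gene length. Awat1 lay at 25.0, 5.78 and 15.0 CPM after Aldara and 0.943, 6.14, 2.57 and 4.29 CPM untreated in Il12rb2-deleted libraries, and at 10.3, 16.4 and 28.4 CPM after Aldara and 4.05, 1.71 and 5.91 CPM untreated in floxed control libraries. Only Il12rb2-deleted Aldara replicate 2 fell within the untreated range. Its change was 2.15 (SE 0.66, edgeR adjusted p = 0.0391) in Il12rb2-deleted cells and 2.23 (SE 0.73, adjusted p = 0.0785) in floxed control cells. Awat2 stood at 20.9, 23.8 and 26.3 CPM after Aldara and 4.37, 10.7, 13.4 and 4.80 CPM untreated in Il12rb2-deleted libraries, against 53.9, 49.5 and 15.5 CPM after Aldara and 25.7, 5.54 and 11.3 CPM untreated in floxed control libraries. It rose by 1.50 in log2 over the mean (SE 0.40, edgeR adjusted p = 0.0125), with overlap only through floxed control untreated replicate 1.

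**Figure D2:**
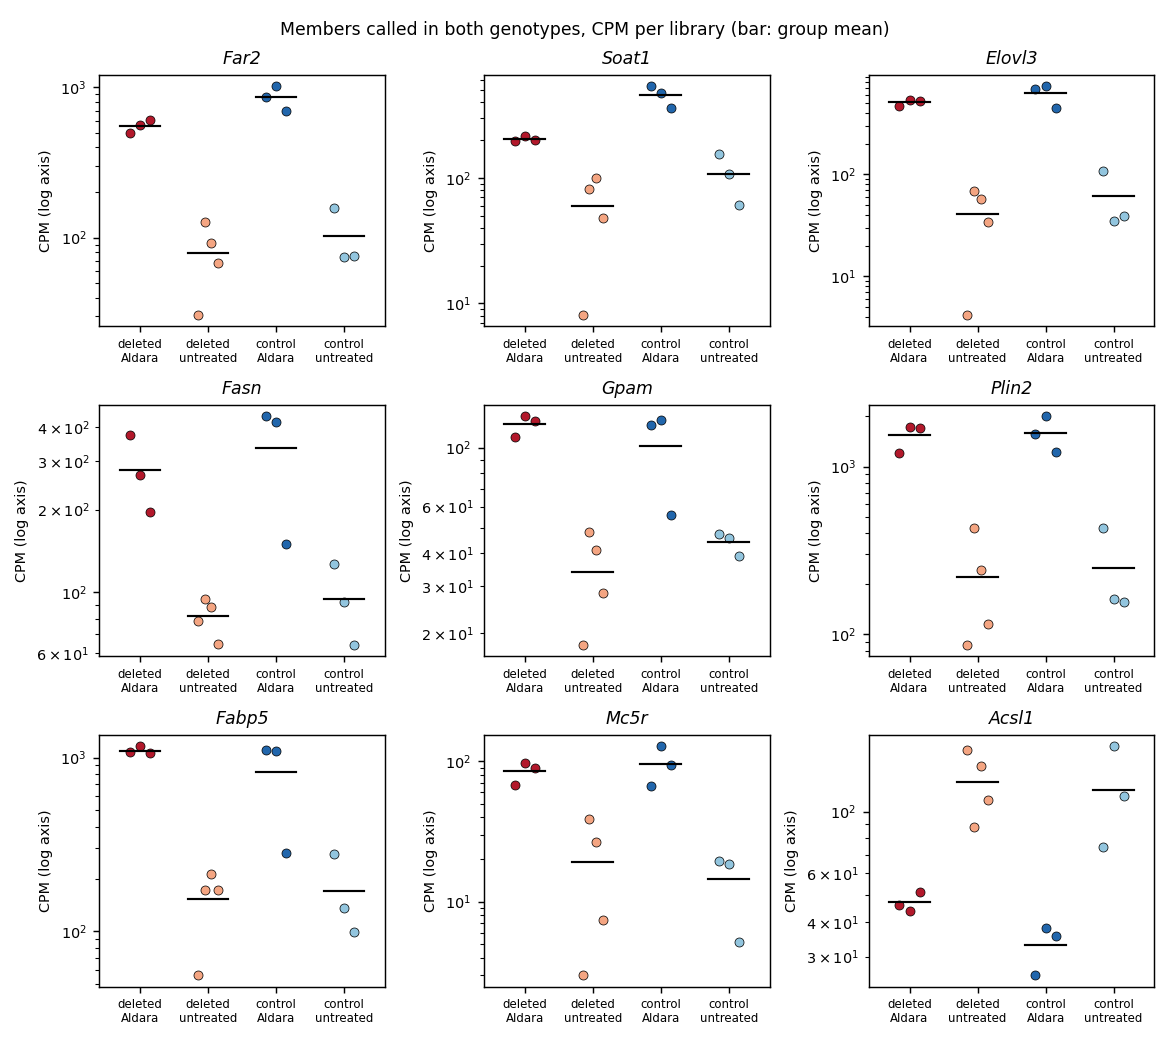
CPM per library (y axis, log scale) of the 9 genes called in both genotypes, with libraries as points grouped by genotype and treatment (x axis) and bars at group means. Aldara and untreated values do not overlap within either genotype in any of the 9 panels. In floxed control libraries they nearly meet for Fabp5 (282 against 278 CPM) and are close for Fasn (149 against 127 CPM) and Gpam (55.8 against 47.4 CPM). Il12rb2-deleted untreated replicate 1 is the lowest point for Elovl3 (4.20 CPM) and Soat1 (8.14 CPM).

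Among the elongation genes, Elovl3 and Elovl5 rose over the mean. Elovl3 (chromosome 19, 46131897 to 46135694, plus strand), which lengthens saturated and monounsaturated chains in sebaceous gland and brown fat, had the largest change of the 36 genes. It stood at 472, 532 and 523 CPM after Aldara and at 4.20, 69.3, 56.9 and 34.4 CPM untreated in Il12rb2-deleted libraries, and at 683, 735 and 450 CPM after Aldara and 109, 34.5 and 39.2 CPM untreated in floxed control libraries. All 6 Aldara libraries exceeded all 7 untreated ones. The rise was 3.63 in log2 (SE 0.63, edgeR adjusted p = 0.00175) in Il12rb2-deleted cells and 3.35 (SE 0.69, adjusted p = 0.0118) in floxed control cells. Elovl5, which acts on polyunsaturated chains, lay at 47.6, 52.0 and 86.6 CPM after Aldara and 26.7, 54.5, 24.9 and 22.4 CPM untreated in Il12rb2-deleted cells, and at 74.9, 83.3 and 50.8 CPM after Aldara and 36.7, 39.8 and 24.0 CPM untreated in floxed control cells. It rose by 1.01 over the mean (SE 0.25, edgeR adjusted p = 0.00739), with Il12rb2-deleted untreated replicate 2 among the Aldara values. Elovl6, which lengthens palmitate, read 205, 391 and 185 CPM after Aldara and 53.2, 147, 235 and 57.2 CPM untreated in Il12rb2-deleted libraries, and 886, 643 and 288 CPM after Aldara and 517, 354 and 169 CPM untreated in floxed control libraries. Its values overlapped in both genotypes and it was not called (0.94 over the mean, edgeR adjusted p = 0.0889).

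Fatty acid synthesis was represented by Acly, Fasn and the carboxylases Acaca and Acacb. Fasn, the synthase of palmitate, lay at 376, 268 and 196 CPM after Aldara and 78.2, 94.7, 88.5 and 64.6 CPM untreated in Il12rb2-deleted libraries. It lay at 439, 417 and 149 CPM after Aldara and 127, 91.9 and 64.1 CPM untreated in floxed control libraries. The rise was 1.78 in log2 (SE 0.34, edgeR adjusted p = 0.00316) in Il12rb2-deleted cells and 1.83 (SE 0.38, adjusted p = 0.0117) in floxed control cells, with no overlap. Acly, which splits citrate into acetyl-CoA, read 333, 474 and 359 CPM after Aldara and 142, 191, 346 and 172 CPM untreated in Il12rb2-deleted libraries, and 704, 771 and 315 CPM after Aldara and 233, 190 and 211 CPM untreated in floxed control libraries. It passed in floxed control cells at 1.50 (SE 0.36, edgeR adjusted p = 0.0209), and stood at 0.87 (adjusted p = 0.083) in Il12rb2-deleted cells, where untreated replicate 3 lay above 1 Aldara library. Acaca, the cytosolic carboxylase, and Acacb, the form linked to mitochondria, were called in no comparison, with changes of 0.73 and 0.64 over the mean (edgeR adjusted p = 0.0668 and 0.459).

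The desaturases did not move as a group. Scd1, the main stearoyl-CoA desaturase of skin, which sebocytes express strongly, lay at 1029, 1117 and 1553 CPM after Aldara and 207, 1074, 687 and 384 CPM untreated in Il12rb2-deleted libraries. In floxed control libraries it lay at 2559, 2935 and 1133 CPM after Aldara and 1114, 735 and 528 CPM untreated. It rose by 1.27 over the mean (SE 0.34, edgeR adjusted p = 0.0123) and passed in neither genotype. Scd2, its paralog with broad expression, went the other way: 22.6, 13.3 and 24.2 CPM after Aldara and 23.9, 43.2, 56.8 and 39.3 CPM untreated in Il12rb2-deleted cells, and 31.3, 9.30 and 10.9 CPM after Aldara and 42.6, 28.8 and 53.4 CPM untreated in floxed control cells. The log2 change over the mean was -1.15 (SE 0.31, edgeR adjusted p = 0.0139). Scd3, a desaturase of skin and Harderian gland, stood at 2.45, 18.1 and 3.83 CPM after Aldara and 4.97, 15.4, 4.43 and 5.83 CPM untreated in Il12rb2-deleted cells, and at 25.5, 36.5 and 102 CPM after Aldara and 8.32, 11.7 and 11.5 CPM untreated in floxed control cells. The Aldara change of Scd3 was 0.12 (edgeR adjusted p = 0.939) in Il12rb2-deleted cells and 2.38 (adjusted p = 0.0605) in floxed control cells. All 3 Scd genes lie within 1 stretch of chromosome 19, Scd1 87.6 kb from Scd2 and Scd2 49.7 kb from Scd3. They are close copies in sequence, and how reads that fit several of them were counted is not given, so the division of counts among them is uncertain. Fads1 and Fads2, desaturases of polyunsaturated chains, lay between 0 and 36.3 CPM, with the highest value of each in floxed control Aldara replicate 3, and neither was called.

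**Figure D3:**
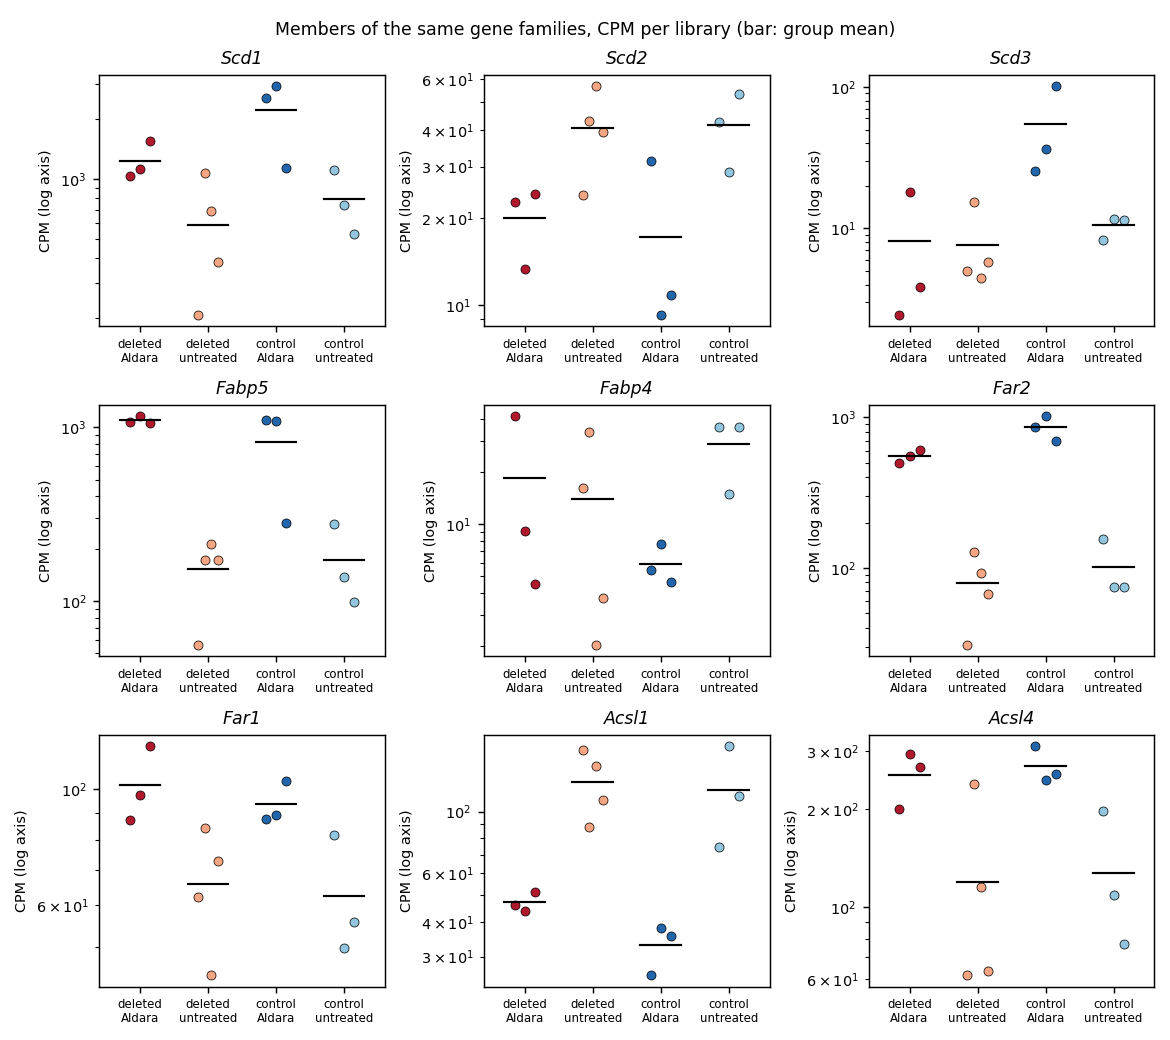
CPM per library (y axis, log scale) of related genes by genotype and treatment (x axis), with bars at group means. Scd1 means were higher and Scd2 means lower after Aldara in both genotypes, Scd3 was at 25.5 to 102 CPM in floxed control Aldara libraries and at most 18.1 CPM elsewhere, and Acsl1 and Acsl4 lie in opposite order.

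Acyl-CoA synthetases, which activate free fatty acids, were split as well. Acsl1, known for channelling chains to oxidation and storage, stood at 46.2, 44.0 and 51.5 CPM after Aldara and 166, 88.3, 146 and 110 CPM untreated in Il12rb2-deleted libraries, and at 25.7, 38.1 and 35.6 CPM after Aldara and 74.5, 172 and 114 CPM untreated in floxed control libraries. Every Aldara value was below every untreated one. Acsl1 fell by 1.44 on the log2 scale (SE 0.29, edgeR adjusted p = 0.00445) in Il12rb2-deleted cells and by 1.86 (SE 0.31, adjusted p = 0.00525) in floxed control cells. Acsl4, which prefers arachidonate, read 199, 294 and 269 CPM after Aldara and 61.8, 238, 115 and 63.5 CPM untreated in Il12rb2-deleted libraries, and 311, 245 and 256 CPM after Aldara and 196, 109 and 77.0 CPM untreated in floxed control libraries. Its rise was 1.09 over the mean (SE 0.30, edgeR adjusted p = 0.0159). Acsl5 lay at 343, 519 and 454 CPM after Aldara and 273, 369, 248 and 274 CPM untreated in Il12rb2-deleted libraries, and at 456, 462 and 420 CPM after Aldara and 339, 270 and 347 CPM untreated in floxed control libraries. It rose by 0.54 over the mean (SE 0.15, edgeR adjusted p = 0.0167). Acsl3, known from droplet formation, lay between 36.9 and 74.0 CPM in all libraries and was not called (0.21, edgeR adjusted p = 0.501).

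For glycerolipid synthesis, 3 of 5 tested genes rose over the mean. Gpam, which adds the first chain to glycerol phosphate, lay at 109, 131 and 126 CPM after Aldara and 18.1, 48.1, 41.1 and 28.4 CPM untreated in Il12rb2-deleted libraries, and at 121, 127 and 55.8 CPM after Aldara and 47.4, 45.5 and 39.0 CPM untreated in floxed control libraries. Floxed control Aldara replicate 3 came closest to the untreated values. The rise was 1.86 (SE 0.32, edgeR adjusted p = 0.00181) in Il12rb2-deleted cells and 1.21 (SE 0.35, adjusted p = 0.0488) in floxed control cells. Agpat2, which adds the next chain, read 37.9, 21.9 and 35.2 CPM after Aldara and 23.8, 25.3, 22.0 and 17.4 CPM untreated in Il12rb2-deleted libraries, and 79.4, 130 and 34.6 CPM after Aldara and 42.1, 16.3 and 20.6 CPM untreated in floxed control libraries. It overlapped in both genotypes, and passed in floxed control cells at 1.62 (SE 0.44, edgeR adjusted p = 0.038) against 0.52 (adjusted p = 0.446) in Il12rb2-deleted cells. Dgat1, which completes triglyceride, stood at 43.3, 64.1 and 65.5 CPM after Aldara and 43.1, 36.6, 56.8 and 29.1 CPM untreated in Il12rb2-deleted libraries, and at 78.8, 60.8 and 145 CPM after Aldara and 53.0, 59.3 and 51.3 CPM untreated in floxed control libraries. Its rise of 0.64 over the mean (SE 0.22, edgeR adjusted p = 0.0442) lost its call when any of 10 libraries was left out, and was 0.42 (adjusted p = 0.144) without floxed control Aldara replicate 3. Dgat2, the other enzyme of this last step, and the phosphatase Lpin1 were not called, at 0.33 and 0.76 over the mean (edgeR adjusted p = 0.203 and 0.226).

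Lipid droplet genes divided by gene. Plin2 (chromosome 4, 86648386 to 86670060, minus strand), the droplet coat protein present in most cells that store lipid, stood at 1198, 1721 and 1693 CPM after Aldara and 86.6, 432, 241 and 115 CPM untreated in Il12rb2-deleted libraries, and at 1568, 1999 and 1219.7 CPM after Aldara and 430, 162 and 157 CPM untreated in floxed control libraries. The lowest Aldara library lay well above the highest untreated one. Its rise was 2.82 (SE 0.49, edgeR adjusted p = 0.00182) in Il12rb2-deleted cells and 2.68 (SE 0.54, adjusted p = 0.0111) in floxed control cells. Cidea, a droplet fusion protein of sebocytes and brown fat, read 85.0, 128 and 85.2 CPM after Aldara and 3.43, 40.2, 30.0 and 10.4 CPM untreated in Il12rb2-deleted libraries, and 149, 232 and 102 CPM after Aldara and 77.9, 20.8 and 23.8 CPM untreated in floxed control libraries. All Aldara libraries exceeded all untreated ones, with changes of 2.26 (SE 0.63, edgeR adjusted p = 0.0238) in Il12rb2-deleted cells and 1.98 (SE 0.68, adjusted p = 0.0952) in floxed control cells. Plin3, a coat protein shared with the cytosol, had values of 86.9 to 137 CPM after Aldara and 130 to 202 CPM untreated and was not called (-0.42 over the mean, edgeR adjusted p = 0.0823). Pnpla2, the lipase that starts triglyceride breakdown, was not called either (0.40, edgeR adjusted p = 0.167).

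Among carriers, Fabp5 and Fabp4 differed. Fabp5, the epidermal fatty acid binding protein, lay at 1075, 1159.5 and 1057 CPM after Aldara and 56.0, 172, 213 and 172 CPM untreated in Il12rb2-deleted libraries, and at 1100.2, 1085 and 282 CPM after Aldara and 278, 137 and 99.1 CPM untreated in floxed control libraries. Floxed control Aldara replicate 3 was near the untreated range, and the other 5 Aldara libraries lay far above it. The rise was 2.84 (SE 0.49, edgeR adjusted p = 0.00174) in Il12rb2-deleted cells and 2.26 (SE 0.53, adjusted p = 0.02) in floxed control cells. Fabp4, the binding protein of adipocytes, macrophages and vessels, read 41.7, 9.14 and 4.51 CPM after Aldara and 16.1, 33.9, 2.02 and 3.78 CPM untreated in Il12rb2-deleted libraries, and 5.43, 7.67 and 4.67 CPM after Aldara and 35.9, 14.8 and 36.2 CPM untreated in floxed control libraries. It was not called (-0.94 over the mean, edgeR adjusted p = 0.304). Apoc1, a small apolipoprotein, and Cpt1a, which brings chains into mitochondria, were not called, at 0.37 and 0.67 over the mean (edgeR adjusted p = 0.248 and 0.222).

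The nuclear receptor and the melanocortin receptor of sebocytes were higher in all Aldara libraries than in all untreated ones. Pparg stood at 117, 96.4 and 94.8 CPM after Aldara and 4.97, 44.8, 23.5 and 12.5 CPM untreated in Il12rb2-deleted libraries, and at 120, 114 and 61.4 CPM after Aldara and 48.1, 22.9 and 10.5 CPM untreated in floxed control libraries. Its rise was 2.29 (SE 0.57, edgeR adjusted p = 0.0144) in Il12rb2-deleted cells, and the change was 1.86 (SE 0.62, adjusted p = 0.0851) in floxed control cells. Mc5r, the receptor through which melanocortins act on sebum secretion in mice, stood at 67.6, 96.7 and 89.9 CPM after Aldara and 3.00, 38.8, 26.8 and 7.43 CPM untreated in Il12rb2-deleted libraries, and at 66.7, 128 and 94.2 CPM after Aldara and 19.6, 18.7 and 5.19 CPM untreated in floxed control libraries. Mc5r rose by 2.18 (SE 0.63, edgeR adjusted p = 0.0292) in Il12rb2-deleted cells and by 2.74 (SE 0.71, adjusted p = 0.0313) in floxed control cells.

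**Figure D4:**
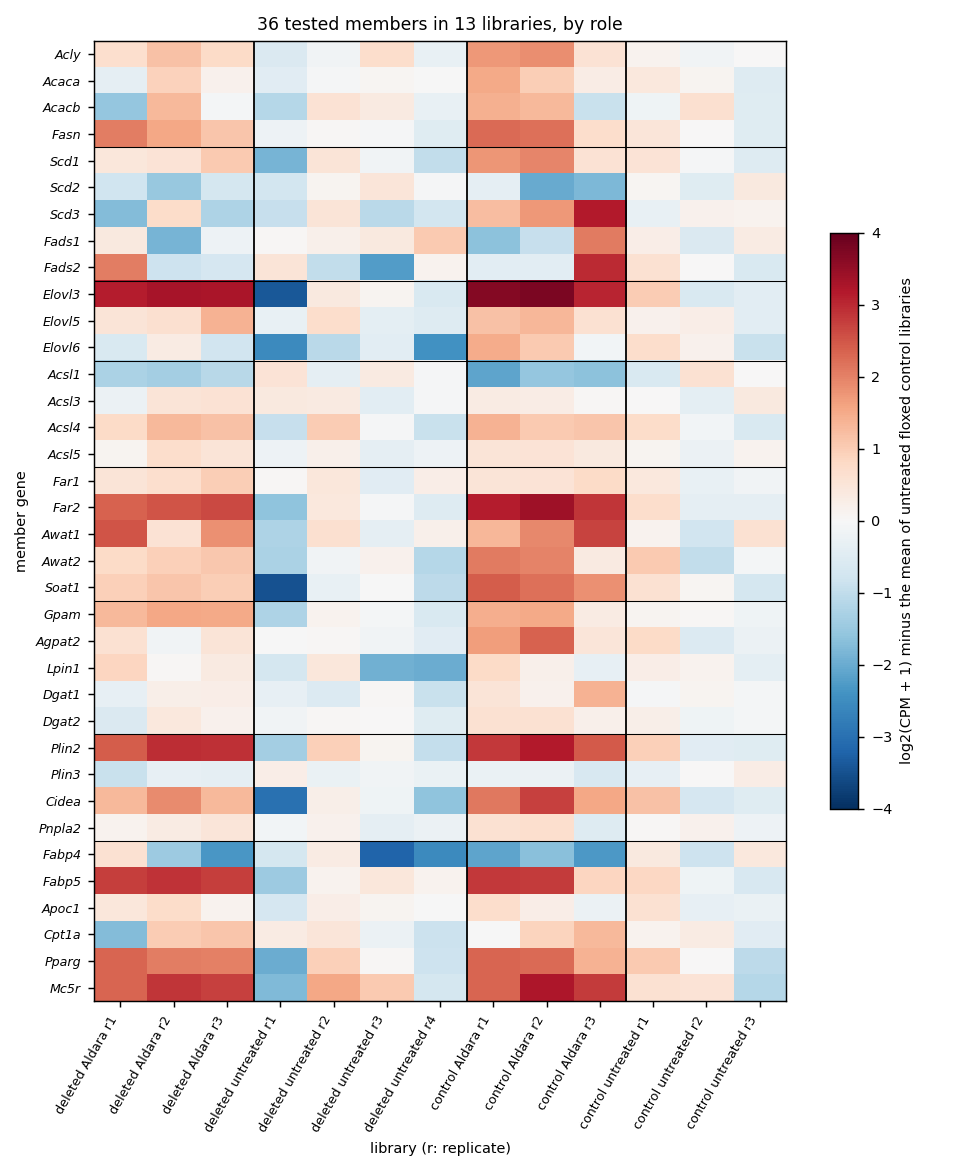
Level of the 36 tested genes (y axis, by role) in the 13 libraries (x axis), coloured by log2(CPM + 1) minus the mean of the floxed control untreated libraries. Elovl3, Far2, Plin2, Pparg and Mc5r are red in all 6 Aldara libraries, Acsl1 is blue in them, and Il12rb2-deleted untreated replicate 1 is blue for Elovl3, Soat1 and Cidea (3.43 CPM).

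The calls differed in how far they rested on single libraries. Of the 20 genes that rose over the mean, Il12rb2-deleted untreated replicate 1 was the lowest of the 7 untreated libraries for 14, and floxed control untreated replicate 1 was the highest for 10. The same count was not made over all genes, and the 20 were called from these same libraries. Whether these libraries were extreme for these genes in particular is thus not shown. The median coefficient of variation of the 36 genes was 22.2% and 45.4% in Il12rb2-deleted Aldara and untreated libraries and 39.8% and 38.3% in floxed control Aldara and untreated libraries. Over all genes of at least 10 CPM it was 23.3% and 23.2%, and 24.5% and 22.4%, in the same groups. This limit was not applied to the 36 genes, some of which averaged less, such as Fads2 at 7.41 CPM in Il12rb2-deleted Aldara libraries. The 2 sets of medians are thus not on the same footing. In floxed control cells, leaving out 1 library at a time left 215 to 1451 of all genes called, beside 1132 with all 13 libraries. The lowest of these counts came without floxed control untreated replicate 2, so the loss of calls there was not particular to the 36 genes. Among the 36, Far2 and Acsl1 passed under every setting tried. They alone of the 36 passed without floxed control untreated replicate 2 or 3, which left 2 calls of 11. Elovl3 then had adjusted p = 0.0709 and 0.0647 and Plin2 0.0674 and 0.0626. Without floxed control untreated replicate 1 the changes of Elovl3 and Plin2 were 4.08 and 3.33. The calls among the 36 fell to 6 and 5 genes without floxed control Aldara replicate 1 or 2. Acly, Fabp5 and Mc5r lost their call without any 1 of these 4 libraries, and Fasn without either of the 2 untreated ones. Gpam, Soat1 and Agpat2 passed in fewer settings, also losing the call without some Il12rb2-deleted libraries, with adjusted p up to 0.17, 0.175 and 0.2. In Il12rb2-deleted cells Fasn, Elovl3, Acsl1, Far2, Gpam, Plin2, Fabp5 and Pparg passed under every setting, whereas Awat1 lost its call without Aldara replicate 1 or 3 or untreated replicate 1, 3 or 4 of that genotype, and without floxed control Aldara replicate 2 or untreated replicate 1. Soat1, Cidea and Mc5r each lost theirs without untreated replicate 4 and without Aldara replicate 2 (adjusted p of 0.0622 to 0.0789). Soat1 also lost it without Aldara replicate 1 or 3, and Mc5r without Aldara replicate 3. Over the mean, Far1 lost its call without Il12rb2-deleted Aldara replicate 3 or floxed control untreated replicate 2 or 3, Acsl5 without Il12rb2-deleted Aldara replicate 2 or floxed control untreated replicate 2, and Agpat2 without floxed control Aldara replicate 2 (adjusted p of 0.0503 to 0.0665). Without untreated replicate 2 the changes of Pparg and Mc5r in Il12rb2-deleted cells were 2.91 and 2.77.

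No difference between the genotypes passed for any of the 36 genes, before or after Aldara, and none of the differences between their Aldara effects did. Over all genes the edgeR test called 0 (0% of 16051) in each of the 3 comparisons. At an unadjusted p under 0.05 there were 1 of the 36 genes untreated, 4 after Aldara and 2 for the difference of effects, beside 599, 690 and 539 of all genes. DESeq2 called 22, 24 and 2 genes, and limma voom called 0 in each. Among the 36, DESeq2 called Scd3 after Aldara and no other. Scd3 averaged 8.12 CPM in Il12rb2-deleted and 54.6 CPM in floxed control Aldara libraries, a log2 difference of -2.74 (SE 0.73, edgeR adjusted p = 0.982). Agpat2, Dgat1 and Elovl6 also reached an unadjusted p under 0.05 after Aldara, with differences of -1.36, -0.72 and -1.22, and Elovl6 alone did so untreated, at -1.49. The median difference of the 36 genes between Il12rb2-deleted and floxed control cells was -0.25 after Aldara and -0.18 untreated, beside -0.02 and -0.05 over all genes. All Il12rb2-deleted Aldara libraries lay above the floxed control Aldara libraries for 1 gene, Acsl1, and below for 3, Scd3, Far2 and Soat1, against 4.37% and 4.72% of all genes. Untreated, 0 genes were separated in either direction, against 2.77% and 3.26% of all genes.

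The intervals on the genotype differences were wide. The Aldara effect on Far2 was 0.27 lower in log2 in Il12rb2-deleted than in floxed control cells (-0.27, 95% interval -1.45 to 0.90). For Scd3 the difference of effects was -2.26 (interval -4.33 to -0.19) and for Fabp4 2.72 (0.12 to 5.31), and both had an adjusted p close to 1. A missing call does not show equal responses.

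Scaled by exonic length, the order of the genes by mean level differed between treatments. That length joins all annotated exons of a gene and can exceed the length of the transcript present. For Fabp4 it was 4489 bases, the whole gene, and for Fabp5 3567 bases. Levels per kilobase of such genes may be too low, so the order between genes holds only for this length. Per kilobase, Plin2 was first after Aldara, at 438 ± 83.7 CPM per kb in Il12rb2-deleted and 454 ± 111 CPM per kb in floxed control libraries (SD, n = 3 each), and Apoc1 was first in untreated libraries, at 276 ± 70.4 and 296 ± 116 CPM per kb (SD, n = 4 and 3). Scd1 was second in floxed control Aldara libraries at 452 ± 194 CPM per kb, which is within the spread of Plin2. In Il12rb2-deleted Aldara libraries Apoc1 followed Plin2 at 391 ± 80.7 CPM per kb, again within the spread. Fabp5 and Elovl3 came next there, at 308 ± 15.3 and 258 ± 16.3 CPM per kb. Elovl3 was 10th in untreated libraries of both genotypes and 4th after Aldara in both. Acacb was at 0.849 and 0.670 CPM per kb in Il12rb2-deleted Aldara and untreated libraries, next to last before Mogat2.

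Neighbouring genes did not always share a call. Of the 37 genes, 9 lie on chromosome 19, and Gpam, which rose in both genotypes, is 124.7 kb from Acsl5, which rose over the mean. Fabp5 rose and Fabp4, 187.5 kb away, was not called. Awat1 and Awat2 are 129.5 kb apart on chromosome X and rose over the mean. Since strand was not recorded by the library method, reads cannot be told apart from those of genes that overlap on the other strand, which include Pitx3 at Elovl3, Ergic2 at Far2, Zdhhc6 at Acsl5 and the vessel gene Egfl7 at Agpat2.

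Other genes of the same pathways were read from 7 lists, and each count over the mean is to be read beside the 13% of all genes that rose and the 11.9% that fell. All 5 tested genes of NADPH and citrate supply rose over the mean (median log2 change 1.55, beside -0.15 over all genes), with Me1, the malic enzyme, at 1.61, Pgd of the pentose phosphate path at 1.58, the citrate carrier Slc25a1 at 1.55 and Idh1 at 1.45. Among other elongation and desaturation genes 5 of 10 rose and 0 fell, including Elovl4, which makes the very long chains of barrier ceramides, at 1.59, and the further enzymes of the elongation cycle Hsd17b12, Hacd3 and Tecr at 1.44, 1.16 and 1.01. Of fatty acid oxidation genes and PPAR targets 10 of 16 rose and 0 fell, with Angptl4, a lipase inhibitor, at 2.09 and the oxidation enzymes Acadl, Acaa2 and Hadha at 1.71, 1.18 and 1.00. Of 15 lipid regulators 6 rose and 1 fell, with Cebpb at 2.11, Ppargc1b at 1.44, Cebpa at 1.17 and the sterol sensor Scap at 0.82. Srebf1, the regulator of fatty acid synthesis genes, was not called (0.74, edgeR adjusted p = 0.0532). Other droplet and lipolysis genes had 6 higher and 1 lower of 13, with the lipases Pnpla5 and Mgll at 3.19 and 2.56, the droplet protein Hilpda at 1.51 and seipin, Bscl2, at 1.08. In other glycerolipid synthesis 3 rose and 1 fell of 12. Gpd1, which makes glycerol phosphate, rose by 3.15, Agpat5 by 1.53 and Lclat1 by 0.72, whereas Agpat4 fell by 2.49 on the log2 scale. Of uptake and activation genes 2 rose and 1 fell of 8, 3 calls where 24.9% of all genes were called in either direction. Acss2 rose by 1.27 and Slc27a4 by 1.16, Slc27a3 fell by 1.80, and Cd36 was not called (0.87, edgeR adjusted p = 0.082).

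Markers of other cell types in the libraries did not all follow these genes. Sebaceous gland and duct markers outside the 37 (Krt79, Gata6, Krt7, Lrig1 and Dgat2l6) were called in 0 of 5 by edgeR in either genotype or over the mean, with a median log2 change of 0.45 over the mean. Summed, they lay at 1161 to 2514 CPM after Aldara and 534 to 2481 CPM untreated in Il12rb2-deleted libraries, and at 2368 to 2853 CPM after Aldara and 1204 to 3396 CPM untreated in floxed control libraries. These ranges overlapped in both genotypes, unlike those of the 11 sebaceous genes among the 37, which summed to 1813 to 2038 CPM after Aldara and 213 to 722 CPM untreated in Il12rb2-deleted libraries, and to 2092 to 3064 CPM after Aldara and 455 to 960.4 CPM untreated in floxed control libraries. Of these 11 genes, 8 rose over the mean by edgeR, where 13% of all genes did. Scd3, Fabp4 and Apoc1 were called in none of its comparisons. Both lists were chosen with earlier results of these data known, so the contrast between them is a description only. Krt79, a keratin of the sebaceous duct and upper follicle, made up most of the sum outside the 37. It was read at 1082 to 2737 CPM after Aldara and 483 to 3144 CPM untreated. Il12rb2-deleted untreated replicates 1 and 4 were lowest for Krt79 (486 and 483 CPM) and, among untreated libraries of that genotype, for Mc5r (3.00 and 7.43 CPM). Krt7 of the same list did not follow, with 165 CPM in replicate 1 and 0.990, 20.2 and 1.22 CPM in replicates 2 to 4. Floxed control untreated replicate 1 was highest for Krt79 (3144 CPM) and the highest untreated library for Elovl3 (109 CPM). Its Mc5r level, 19.6 CPM, was close to the 18.7 CPM of floxed control untreated replicate 2, where Krt79 was 1121 CPM. These examples thus do not stand for the whole list. What such cells contributed to the spread among untreated libraries was not tested.

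**Figure D5:**
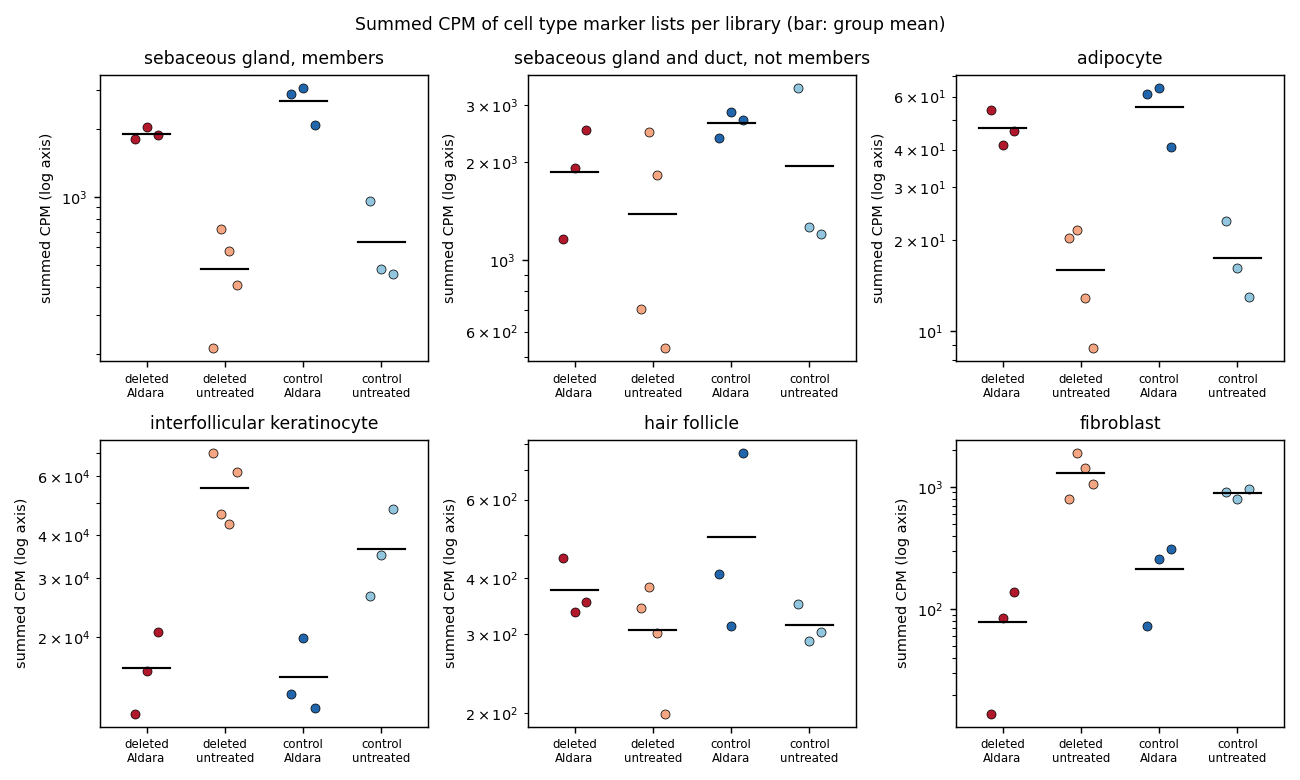
Summed CPM of cell type marker lists per library (y axis, log scale) by genotype and treatment (x axis), with bars at group means. The sebaceous genes among the 37 separate Aldara from untreated libraries, the sebaceous and duct markers outside them do not, and keratinocyte and fibroblast markers were lower after Aldara.

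Keratinocyte markers were lower after Aldara, with 8 of 8 called in Il12rb2-deleted cells and 6 of 8 in floxed control cells, where 7.69% and 2.90% of all genes fell. They summed to 11903 to 20768 CPM after Aldara and 43252 to 70168 CPM untreated in Il12rb2-deleted libraries, and to 12320.0 to 19957 CPM after Aldara and 26465 to 47877 CPM untreated in floxed control libraries. Fibroblast markers fell too, 6 of 8 in Il12rb2-deleted and 3 of 8 in floxed control cells against the same shares of all genes, with sums of 14.01 to 137 CPM after Aldara and 799 to 1899 CPM untreated in Il12rb2-deleted libraries, and of 73.2 to 312 CPM after Aldara and 795 to 963 CPM untreated in floxed control libraries. Of adipocyte markers, Cidec and Adig rose over the mean (2 of 5 tested, where 13% of all genes did), at 3.96 and 3.88, while Adipoq stood at 0 to 0.586 CPM and Plin1 at 0 to 1.07 CPM in every library. Vessel markers were called in 0 of 7 by edgeR, summing to 9.57 to 48.7 CPM after Aldara and 11.3 to 104 CPM untreated in Il12rb2-deleted libraries, and to 26.8 to 34.3 CPM after Aldara and 38.8 to 88.0 CPM untreated in floxed control libraries. Macrophage and Langerhans cell markers had 0 of 9 called in either genotype and 1 lower over the mean, and hair follicle markers 1 higher and 2 lower of 9 over the mean, where 13% of all genes rose and 11.9% fell. The part of these shifts in the changes of the 37 genes was not tested.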

How the data were processed

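The authors deposited whole-number read counts for each Ensembl gene, not normalized, in 13 libraries made by the Smart-seq2 method and sequenced as single-end reads of 100 bases, per the labels' protocols. STAR, featureCounts of the Subread package and build GRCm38 were used, per the submitters' processing notes. The sources used here give no versions, no strand setting and no treatment of reads with several matches.

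Genes were filtered with edgeR 4.0.16 (filterByExpr, minimum count 10; R 4.3.3), scaled by TMM and fitted by the quasi-likelihood method with 1 coefficient per group over all libraries. Contrasts were Aldara against untreated in each genotype and as the mean of both, the deletion effect with and without Aldara, and their interaction. Benjamini-Hochberg adjustment ran over 16051 genes, with calls at an adjusted p under 0.05. Standard errors (SE) were taken from the log2 fold change and F. CPM are TMM-scaled, and SDs are over libraries. DESeq2 1.42.0, limma 3.58.1 (voom), other size factors, no filter, a replicate block and leaving out each library were alternatives, and one without libraries over 5% in Gm10800 was added after the data were seen. Simulated counts with known changes served to test the scripts.

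The 37 genes and the lists were chosen with earlier results of these data known. Values per library are given for genes called in any contrast and for their relatives among the 37, the others by range or change, and up to 4 genes of each pathway list by smallest p in the mean contrast; Srebf1, Cidec, Adig and genes named with the markers came after their values were seen. Coordinates and exonic lengths are from GENCODE M21 of GRCm38, which matched all 37 identifiers. 1 sebaceous marker of the lists is not reported here.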

Additional observations from a re-analysis of the deposited data

Results flagged for a closer look

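In the group of 4 Il12rb2-deleted untreated libraries, 2 of the 37 genes screened had 1 library far from the other 3, and in both it was replicate 2. Scd3 was at 15.4 CPM there and at 4.43 to 5.83 CPM in the others, and Elovl5 was at 54.5 CPM there and at 22.4 to 26.7 CPM in the others. In both cases the gap to the nearest library exceeded Dixon's 95% critical value for 4 samples, which chance exceeds in about 1 of 20 groups, so about as many as were found. Over all genes 7.18% of 16038 exceeded it in this group. The same library had the lowest depth of the 13, 5830034 counts, and 10.3% of its counts in Gm10800. The groups of 3 libraries are too small for this rule.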

How the results depend on the processing

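No called change of the 36 genes reversed under any of the 19 alternatives. Leaving out 1 library at a time gave 8 to 17 of the 36 genes called in Il12rb2-deleted cells, 2 to 13 in floxed control cells and 19 to 25 over the mean. Over all genes these fits called 1650 to 2764, 215 to 1451 and 3142 to 4004. In the genotype comparisons they called 0 of the 36 genes and 0 of all genes, apart from 1 gene for the interaction without floxed control untreated replicate 3. DESeq2 gave an adjusted p to fewer genes than edgeR. In floxed control cells it called 18 of the 36 genes and 2041 of 13210 genes. Between genotypes after Aldara it called 1 of the 36 (Scd3) and 24 of 13825 genes. Untreated, 22 of 15678 genes passed between genotypes, and 2 of 15990 passed for the interaction. Without the filter on low counts 3 genes passed between genotypes untreated and 1 after Aldara. Without the libraries over 5% in Gm10800, an alternative chosen after seeing the data, 6 of the 36 genes and 270 genes passed in floxed control cells, 1466 genes in Il12rb2-deleted cells and 2622 over the mean. The cause of these shifts was not tested. The median over all genes moved by 0.11 in Il12rb2-deleted cells and over the mean with voom, by -0.12 over the mean without the filter, and by 0.17, 0.18 and 0.23 without the Gm10800 libraries in floxed control cells, in Il12rb2-deleted cells and over the mean. Single libraries moved it as well. Without floxed control untreated replicate 2 the shift was 0.17 in floxed control cells and 0.14 over the mean. It was -0.13 in floxed control cells without floxed control Aldara replicate 3, and 0.10 in Il12rb2-deleted cells without Il12rb2-deleted untreated replicate 2.

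Same-numbered libraries of different groups had deviations correlated at -0.11 to 0.29 (18 pairs, median 0.00063), 4 of them over 0.1. For libraries with other numbers the range was -0.41 to 0.34 (45 pairs, median -0.0083), with 2 over 0.1. These values do not settle whether the replicate numbers pair the samples. With the replicate number as a block, 8 of the 36 genes passed in Il12rb2-deleted cells, 8 in floxed control cells and 21 over the mean, beside 1919, 831 and 3581 of all 16051 genes. Counts of 3 or 4 libraries a group and the spread of the untreated ones limit what a missing call can show.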
